A study of Homo sapiens with 4 samples.

Results

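RNA from A549 tumors of mice that ran on a treadmill in repeated sessions and were not irradiated was compared with RNA from untreated A549 tumors, gene by gene and across gene families. A549 is a human lung adenocarcinoma cell line. The cells were grown in the flank of 6-week-old male BALB/c athymic nude mice, which lack T cells and keep other immune cells, and no allele or agent beyond the treatments is named. The groups used were aerobic exercise alone and its control, and, as a further pair, the combination of aerobic exercise and radiation therapy and radiation therapy alone. Each group is 1 library, so 2 of the 4 libraries of the series carry the comparison, and 19393 of the 38137 genes listed were compared, those with a mean of at least 20 reads over the 4 libraries. Nothing in the sources used here says whether a library holds 1 tumor or several. The differences are therefore ratios between 2 libraries with no replicate check and no p-value. Beside a fold, the range in brackets is its 95% interval from the exact Clopper-Pearson method, which holds counting error alone.

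Levels are given as reads, or as CPM, which is the read count scaled to library size with a TMM factor. TMM sets the bulk of genes to no difference. Log2 ratios are of exercise over control with 0.5 reads added to each count, so that a positive value means a higher level with exercise. Folds are ratios of CPM with nothing added. The reads assigned to genes numbered 34304760 with exercise and 34602535 in control, and 33432637 to 35408705 over the 4 libraries. Genes encoded by mitochondrial DNA took 6.62% of reads with exercise and 5.42% in control, and the 18S, 28S, 5.8S and 45S ribosomal RNA genes, whose RNA lacks the polyA tail that the library kit selects, took 0.675% with exercise and 1.31% in control. CDKN2A, which is deleted in A549, had 0 reads with exercise and 1 in control, and CDKN2B, deleted with it, had 0 in both. MTAP, listed with them as deleted, had 352 reads with exercise and 328 in control. The other 10 marker genes of A549 were all compared, and the median log2 ratio of the 11 listed A549 genes compared was 0.03.

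Tumor cells in a flank respond to oxygen, nutrients, growth factors and the cells around them. Interferon signalling turns on antiviral genes through STAT and IRF factors, which bind an element called the ISRE. E2F factors switch on genes of DNA replication, and a later wave of mitotic genes is switched on through an element called CHR. Immediate early genes, such as EGR1 and FOS, are transcribed within minutes of a growth factor or stress signal, many of them through serum response factor bound to CArG boxes.

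Across all genes compared, the median log2 ratio was 0.003 with an SD over genes of 0.32. A total of 161 genes (0.83%) were at least 2-fold higher with exercise and 135 (0.696%) at least 2-fold lower, and 748 (3.86%) were at least 1.5-fold higher and 623 (3.21%) at least 1.5-fold lower. A log2 ratio above 0 was found for 50.7% of genes. Most genes past 2-fold had few reads. Of the 161 higher genes 116 had a mean below 100 reads over the 4 libraries, as had 109 of the 135 lower genes. In the exercise and control libraries themselves, 21 of the 161 and 16 of the 135 averaged below 20 reads. These passed the minimum only through the irradiated libraries. Among the 4221 genes with a mean of at least 2000 reads over the exercise and control libraries, 9 were at least 2-fold higher and 5 at least 2-fold lower. Counting error left 32 genes with an interval wholly above 2-fold and 26 with an interval wholly below 0.5.

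**Figure D1:**
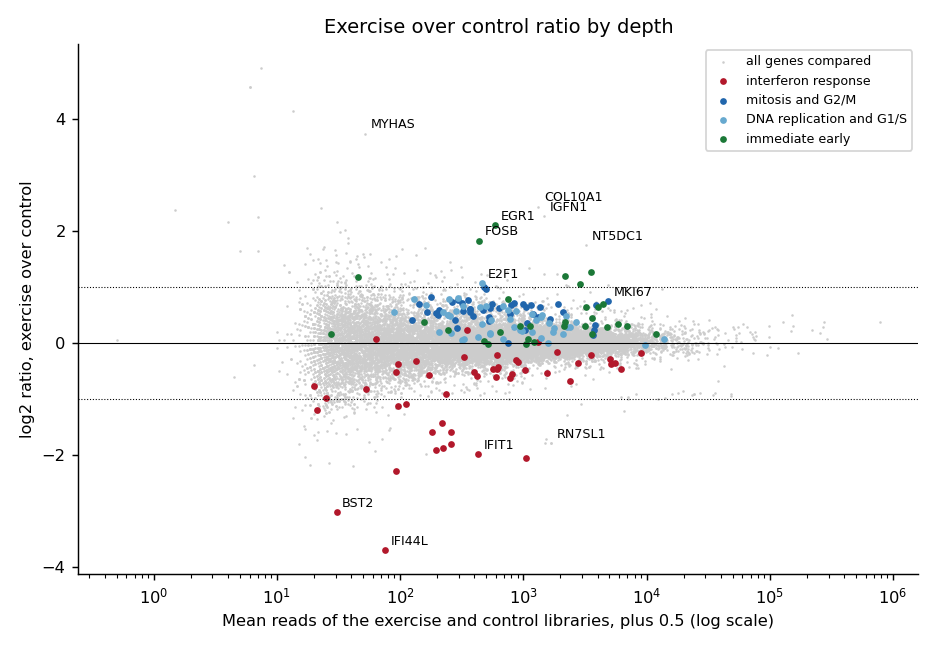
Log2 ratio of exercise over control (y axis) against the mean reads of both libraries plus 0.5 (x axis, log scale) for the 19393 genes compared, 1 point a gene, with 4 lists in colour and dotted lines at 2-fold. All but 3 of the 48 interferon response genes lie below 0, down to −3.69 for IFI44L, 45 of 46 mitosis and 47 of 48 DNA replication genes lie above 0, nearly all within 2-fold, and the spread of all genes widens at low reads.

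The promoters of the genes that carry the main differences are shown first, to let the elements named above be seen beside the values. Each line is the window from 250 bases before to 50 bases after the gene start, 5′ to 3′ on the gene's strand, from RefSeq in build GRCh38.p14, with the searched motif in capitals. In IFI44L and IFIT1 the capitals mark an ISRE-like motif (GAAANNGAA or its reverse complement), in E2F1 an E2F motif (TTTCCCGC, TTTGGCGC, TTTCGCGC or TTTGCCGC), in MKI67 a CHR (TTTGAA), and in EGR1 a CArG box. The 5 genes were chosen for their values and their matches. They lie at chr1:78620198-78620497 (plus strand), chr10:89392373-89392672 (plus), chr20:33686336-33686635 (minus), chr10:128126374-128126673 (minus) and chr5:138465229-138465528 (plus).
IFI44L: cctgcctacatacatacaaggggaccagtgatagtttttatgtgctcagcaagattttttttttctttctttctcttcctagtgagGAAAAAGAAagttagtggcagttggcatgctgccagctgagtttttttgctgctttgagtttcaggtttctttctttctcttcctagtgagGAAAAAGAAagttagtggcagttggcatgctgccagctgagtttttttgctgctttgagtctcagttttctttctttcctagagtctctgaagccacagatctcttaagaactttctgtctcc
IFIT1: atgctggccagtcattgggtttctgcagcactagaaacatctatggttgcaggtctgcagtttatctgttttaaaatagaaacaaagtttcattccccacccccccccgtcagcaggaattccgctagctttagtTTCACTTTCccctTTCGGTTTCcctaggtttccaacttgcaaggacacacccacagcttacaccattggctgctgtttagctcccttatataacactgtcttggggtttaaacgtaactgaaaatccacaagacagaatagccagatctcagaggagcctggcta
E2F1: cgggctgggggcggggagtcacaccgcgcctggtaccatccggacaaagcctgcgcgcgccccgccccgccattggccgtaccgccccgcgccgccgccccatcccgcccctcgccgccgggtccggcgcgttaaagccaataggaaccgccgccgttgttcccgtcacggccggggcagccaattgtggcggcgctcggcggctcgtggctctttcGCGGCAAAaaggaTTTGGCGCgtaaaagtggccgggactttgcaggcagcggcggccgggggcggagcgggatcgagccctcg
MKI67: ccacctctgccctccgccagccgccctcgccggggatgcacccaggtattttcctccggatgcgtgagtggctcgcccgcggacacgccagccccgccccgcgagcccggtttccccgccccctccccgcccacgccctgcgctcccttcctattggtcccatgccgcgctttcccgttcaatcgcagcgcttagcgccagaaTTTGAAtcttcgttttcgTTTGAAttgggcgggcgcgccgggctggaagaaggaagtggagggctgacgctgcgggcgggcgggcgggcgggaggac
EGR1: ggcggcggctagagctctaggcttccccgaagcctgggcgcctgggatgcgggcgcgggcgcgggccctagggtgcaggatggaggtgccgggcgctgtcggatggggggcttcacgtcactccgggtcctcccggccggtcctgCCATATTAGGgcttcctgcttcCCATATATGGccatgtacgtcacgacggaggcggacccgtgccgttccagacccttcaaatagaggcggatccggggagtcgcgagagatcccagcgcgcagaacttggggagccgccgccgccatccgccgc
Each of the 5 windows holds 2 matches.

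Interferon-stimulated genes were lower with exercise. Of 50 listed symbols 48 were compared, and 45 of the 48 had a log2 ratio below 0, 22 were at least 1.5-fold lower and 14 at least 2-fold lower, against 3.21% and 0.696% of all genes; none was at least 1.5-fold higher. The median log2 ratio of the list was −0.54. The exercise library held the lowest of the 4 levels for 44 of the 48, against 27.1% of all genes. Of these genes 42 had an interval wholly below 1, as had 24 of 85 cytosolic ribosomal protein genes, whose median was −0.03. Such counts rise with read depth, and no share over all genes is given beside them. This applies to the like counts for other lists.

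IFI44L, an antiviral effector on chromosome 1 (78620448 to 78646145 in GRCh38), had 10 reads with exercise and 140 in control, and 90 with the combination and 129 with radiation. Its fold was 0.0739 (0.0347 to 0.14). IFIT1, on chromosome 10 (89392623 to 89406487), binds viral RNA caps and had 168 reads with exercise and 688 in control, and 1157 with the combination and 1054 with radiation. The exercise library was the lowest of the 4 for both genes. IFIT1 lies inside the annotated span of LIPA, a lysosomal lipase gene, which had 2211 reads with exercise and 2292 in control. The fold of IFIT1 was 0.253 (0.212 to 0.299) and that of LIPA 0.998 (0.941 to 1.06).

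BST2 encodes tetherin, which holds budding virus on the cell surface, and had 6 reads with exercise and 54 in control (0.115, 0.0404 to 0.267). XAF1, a partner of the apoptosis inhibitor XIAP, had 30 reads with exercise and 154 in control (0.202, 0.132 to 0.299). IFI6 had more reads, 396 with exercise and 1707 in control, and a fold of 0.240 (0.215 to 0.268). These 3 genes were at their lowest in the exercise library and at their highest in the combination library, with 80, 310 and 4311 reads there and 59, 264 and 2748 with radiation. IFITM1, which blocks virus entry at membranes, had a fold of 0.264 (0.203 to 0.338), IFI44 of 0.271 (0.213 to 0.342) and IFI27 of 0.285 (0.229 to 0.352). Others of the 14, named after their values were seen, were the GTPase MX1 with 88 reads with exercise and 276 in control, the ubiquitin-like modifier ISG15 with 114 with exercise and 319 in control, and the oligoadenylate synthetase OAS2 with 125 with exercise and 388 in control. OASL had 59 reads with exercise and 133 in control, RSAD2 (viperin) 12 with exercise and 29 in control, and the ubiquitin ligase TRIM22 69 with exercise and 152 in control.

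The effectors carried the 2-fold differences. Of the 36 antiviral effectors, 34 had a log2 ratio below 0 and the median was −0.72. The 7 RNA and DNA sensors compared had a median of −0.37, with CGAS, the cytosolic DNA sensor, highest of the whole list at 371 reads with exercise and 325 in control (1.18, 1.01 to 1.37). EPSTI1 was next at 64 reads with exercise and 63 in control. All 5 transcription factors were below 0, with a median of −0.37. IRF9 was at 36.2 CPM with exercise and 52.2 CPM in control (0.694, 0.646 to 0.746). It is named after its value was seen. Of the 9 interferon receptors and JAK kinases, 4 were above 0 and the median was −0.13. Among the 6 ligands, IFNE was compared and had 351 reads with exercise and 306 in control (1.19, 1.01 to 1.39), the highest of the 4 libraries by CPM, while IFNB1, IFNL1, IFNL2, IFNL3 and IFNG had too few reads to be compared.

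Genes of MHC class I presentation, which loads peptides for killer T cells, differed less. Of 19 genes, 2 were above 0, none reached 1.5-fold, and the median log2 ratio was −0.17; 13 had an interval wholly below 1, and the exercise library was the lowest of the 4 for 17. HLA-B was at 43.4 CPM with exercise and 57.5 CPM in control (0.754, 0.705 to 0.806), and HLA-C at 140 CPM with exercise and 182 CPM in control (0.769, 0.741 to 0.799). HLA-B and HLA-C are alike in sequence, so reads may be split between them. The 2 genes above 0 were HLA-G, with 81 reads with exercise and 73 in control, and the chaperone CALR, at 316 CPM with exercise and 302 CPM in control. Of the PARP family, PARP10 and PARP9 were the lowest of 12, with log2 ratios of −0.73 and −0.68. PARP9 is also in the interferon list.

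An ISRE-like motif was found in the promoter windows of 25 of 35 interferon response genes that the promoter table holds (71.4%), and in 9.22% of the 14071 compared genes with a window. Where a gene has several windows, a match in any of them was counted. The motif stood in 10 of 11 genes at least 2-fold lower and in 15 of 24 others of the list. In the printed windows it starts 164 and 73 bases before the start of IFI44L, and 115 and 102 bases before that of IFIT1. A match is a description of letters, not of binding.

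Cell cycle genes were higher with exercise, and nearly all by less than 2-fold. Of 46 genes of mitosis and G2/M, 45 had a log2 ratio above 0, 24 were at least 1.5-fold higher and none 2-fold, with a median of 0.59. All 45 had an interval wholly above 1, and the exercise library was the highest of the 4 for 45, against 29.1% of all genes. Of 48 genes of DNA replication and G1/S, 47 were above 0, 10 at least 1.5-fold higher and 1 at least 2-fold, with a median of 0.39, and the exercise library was the highest for 43.

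AURKB, a kinase of chromosome segregation, was at 18.2 CPM with exercise and 9.13 CPM in control, and 5.34 CPM with the combination and 4.45 CPM with radiation. The fold was 1.99 (1.74 to 2.28). KIF20A, a kinesin of cytokinesis, was at 19.0 CPM with exercise and 9.69 CPM in control (1.96, 1.72 to 2.24). MKI67, the gene of the proliferation antigen Ki-67, was at 174 CPM with exercise and 103 CPM in control, and 43.2 CPM with the combination and 48.6 CPM with radiation. Its fold was 1.68 (1.61 to 1.75) for exercise over control and 0.889 (0.827 to 0.954) for the combination over radiation. In all 3 genes the exercise library was highest and both irradiated libraries lay below control. The lowest members were SPC25, a kinetochore subunit with 732 reads with exercise and 758 in control, and the condensin SMC4, with a log2 ratio of 0.14.

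The groups of mitotic genes had similar medians. They were 0.61 for 14 cyclins and kinases, 0.55 for 20 spindle and kinetochore genes, and 0.69 for 10 genes of mitotic exit, cytokinesis and chromosome structure. Families picked by name alone had lower medians, at 0.30 for 34 kinesins with 27 above 0, 0.32 for 21 centromere proteins with 20 above 0, and 0.23 for 16 tubulins with 15 above 0. The lowest kinesins were KIF17, a motor of neuronal and ciliary transport, and KIF12, with log2 ratios of −0.27 and −0.21.

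E2F1, a transcription factor of S-phase entry on chromosome 20 (33675477 to 33686385), was the only member of the G1/S list at 2-fold. It had 619 reads with exercise and 306 in control, and 241 with the combination and 235 with radiation. The fold was 2.09 (1.82 to 2.41). MCM10, which starts replication forks, had 368 reads with exercise and 217 in control (1.75, 1.48 to 2.08). The lowest 2 were the polymerase subunit POLA1, with a log2 ratio of −0.04, and the histone chaperone subunit CHAF1A, at 45.4 CPM with exercise and 45.2 CPM in control. By role, the median was 0.56 for 7 E2F and cyclin genes, 0.51 for 16 genes of origin licensing and the replicative helicase, 0.41 for 5 genes of nucleotide supply, and 0.18 for 20 polymerase and fork genes. All 16 licensing and helicase genes were above 0 and highest in the exercise library.

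DNA repair genes followed with a median of 0.15 and 26 of 34 above 0. XRCC2, of homologous recombination, had 483 reads with exercise and 302 in control (1.65, 1.43 to 1.92), and BRCA1 1186 with exercise and 822 in control (1.49, 1.36 to 1.63). The kinase CHEK2 was lowest with a log2 ratio of −0.22.

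An E2F motif was found in windows of 23 of 41 G1/S genes (56.1%), against 5.76% of the compared genes with a window and 3 of 40 mitosis genes. A CHR was found in windows of 27 of 40 mitosis genes (67.5%), against 14.9% of the compared genes and 1 of 41 G1/S genes. An ISRE-like motif was in 0 of 41 G1/S windows and 3 of 40 mitosis windows. In E2F1 the 2 matches start 33 and 20 bases before the gene start, and in MKI67 47 and 29 bases before it.

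**Figure D2:**
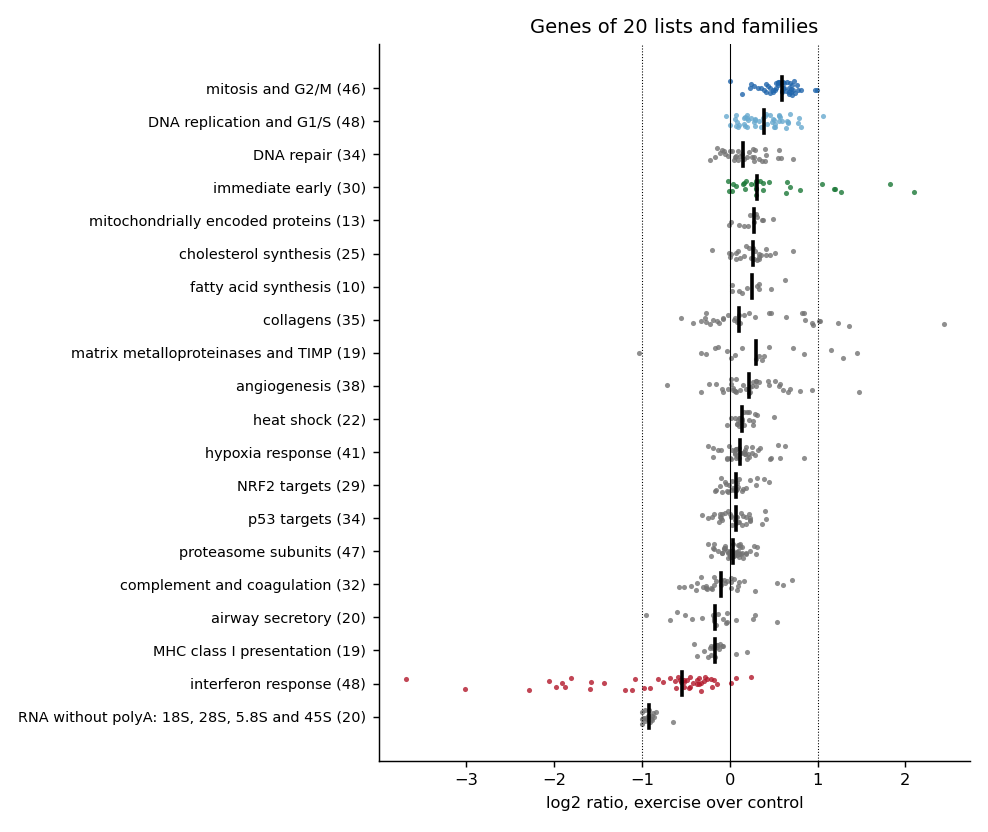
Log2 ratios of exercise over control (x axis) for the genes of 20 lists and families (y axis, number of genes in brackets), 1 point a gene, with black bars at medians and dotted lines at 2-fold. The interferon response extends to the left with a median of −0.54, mitosis genes form a narrow group around 0.59, and proteasome, NRF2 and p53 genes lie around 0.

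Immediate early genes were higher with exercise. Of 32 listed genes 30 were compared, of which 28 had a log2 ratio above 0, 10 were at least 1.5-fold higher and 6 at least 2-fold higher, with a median of 0.31. The control library was the lowest of the 4 for 18 of the 30, against 20.4% of all genes. The exercise library was the highest for 10 of the 30, against 29.1% of all genes, and control for 0. An irradiated library was the highest for the others.

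EGR1, a zinc finger factor on chromosome 5 (138465479 to 138469303), was at 27.3 CPM with exercise and 6.37 CPM in control, and 29.4 CPM with the combination and 20.6 CPM with radiation. The fold was 4.29 (3.71 to 4.98). FOSB, an AP-1 subunit, was at 19.5 CPM with exercise and 5.50 CPM in control, and 31.5 CPM with the combination and 14.3 CPM with radiation (3.54, 3.02 to 4.18). Only the control library was low for EGR1, and for both genes it was the lowest. FOS was at 144 CPM with exercise and 59.7 CPM in control (2.41, 2.29 to 2.53). DUSP1, a phosphatase that switches off MAP kinases, was at 86.3 CPM with exercise and 37.7 CPM in control (2.29, 2.15 to 2.44), and the nuclear receptor NR4A1 at 111 CPM with exercise and 53.4 CPM in control (2.07, 1.96 to 2.19). EGR3 had 62 reads with exercise and 28 in control. The lowest members were IER5 and MAFF, with log2 ratios of −0.02 and −0.01. EGR4 and ARC had too few reads to be compared.

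In the pair that shares no library with this one, 29 of the 30 were above 0 too, with a median of 0.49, where 55.3% of all genes had a log2 ratio of the combination over radiation above 0. FOSB was 2.20-fold higher (1.97 to 2.45) and EGR1 1.43-fold higher (1.29 to 1.57) with the combination than with radiation. Of the other dual-specificity phosphatases, DUSP15 had 52 reads with exercise and 21 in control (2.56, 1.52 to 4.48), and the 21 compared had a median of 0.13. A CArG box was found in windows of 3 of 22 immediate early genes (EGR1, EGR2 and SRF), against 1.47% of the compared genes. Of the 5 genes at least 2-fold higher that the promoter table holds, 1 had a CArG box in its window, EGR1. Boxes outside the windows were not searched for. A CRE (TGACGTCA) was in 3 of 22, against 3.23%. The 2 CArG boxes of EGR1 start 105 and 83 bases before the gene start.

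Feedback genes, ligands and receptors of the EGFR and MAP kinase pathway lay around 0. Of 27 compared, 12 were above 0, none reached 2-fold, and the median was −0.06.

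**Figure D3:**
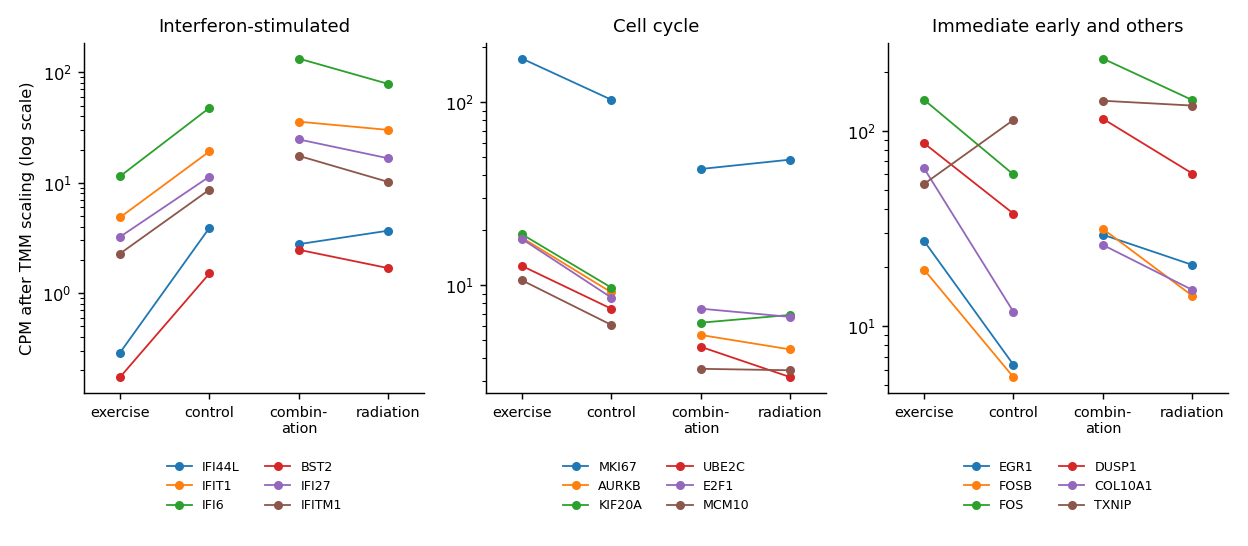
CPM after TMM scaling (y axis, log scale) of 18 genes in the exercise, control, combination and radiation libraries (x axis), 1 point a library, with lines joining each pair. The interferon-stimulated genes are lowest with exercise, the cell cycle genes highest with exercise, and EGR1 and FOSB lowest in control at 6.37 and 5.50 CPM.

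Several genes of the extracellular matrix and its proteases were among those highest with exercise. COL10A1, a short-chain collagen of growth cartilage, was at 64.3 CPM with exercise and 11.9 CPM in control, and 26.1 CPM with the combination and 15.4 CPM with radiation. The fold was 5.41 (4.88 to 6.02). It lies on chromosome 6 (116118909 to 116217144) wholly inside the span of NT5DC1, which runs on the opposite strand from 116100853 to 116249497. NT5DC1 was at 142 CPM with exercise and 42.6 CPM in control (3.35, 3.16 to 3.55). How reads were divided between these overlapping genes is not given in the sources used here, so their ratios cannot be told apart.

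Of 35 collagens compared, 5 were at least 2-fold higher and none lower, and 11 at least 1.5-fold higher, where 0.83% and 3.86% of all genes were so much higher, and the median was 0.10. The chains of basement membrane collagen IV, COL4A2 and COL4A1, were at 75.6 CPM and 22.8 CPM with exercise, against 32.2 CPM and 11.3 CPM in control. Their folds were 2.35 (2.19 to 2.52) and 2.02 (1.79 to 2.28). COL5A1, of the fibrillar collagens, was at 187 CPM with exercise and 91.5 CPM in control (2.04, 1.96 to 2.13), and COL22A1 had 447 reads with exercise and 180 in control (2.57, 2.16 to 3.07). COL1A1, the main collagen of fibroblasts, which was named after its value was seen, was at 161 CPM with exercise and 163 CPM in control. The lowest were COL26A1, with 70 reads with exercise and 107 in control, and COL14A1, with 15 with exercise and 21 in control. COL4A2-AS2, antisense to COL4A2, had 119 reads with exercise and 43 in control, and antisense reads can be told from sense reads only if the counting used strand, which is not given in the sources used here.

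Among 19 matrix metalloproteinases and their inhibitors, 13 were above 0 and the median was 0.30, with 3 at least 2-fold higher and 1 at least 2-fold lower. Interstitial collagenase MMP1 had 369 reads with exercise and 140 in control, and 132 with the combination and 151 with radiation (2.73, 2.24 to 3.34). Stromelysin MMP10 had 303 with exercise and 128 in control (2.45, 1.99 to 3.03) and gelatinase MMP9 78 with exercise and 36 in control (2.24, 1.49 to 3.43). MMP26 had 22 reads with exercise and 47 in control (0.484, 0.278 to 0.820), and MMP14, a membrane-bound activator of other proteases, was next lowest with a log2 ratio of −0.33. ADAM19, a sheddase, was the highest of 27 ADAM and ADAMTS genes, at 45.3 CPM with exercise and 17.8 CPM in control (2.54, 2.32 to 2.79). Of 10 laminins 8 were above 0, from LAMA3 with 1269 reads with exercise and 716 in control to LAMA4 with 65 with exercise and 115 in control.

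Of 24 keratins compared, 15 were above 0 and the median was 0.24. KRT17, a keratin of stressed and basal epithelium, was at 883 CPM with exercise and 440 CPM in control, and 164 CPM with the combination and 183 CPM with radiation. The fold was 2.01 (1.97 to 2.05). KRT6A was at 88.4 CPM with exercise and 43.8 CPM in control (2.02, 1.90 to 2.14). It has near-identical copies, KRT6B and KRT6C, with log2 ratios of 0.75 and 0.87, and reads may be split among the 3. The exercise library was the highest for 14 of the 24. KRT40 and KRT222 were at least 2-fold lower, with 7 and 19 reads with exercise and 19 and 41 in control.

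In the TGF-beta pathway, which drives matrix deposition, 17 of 28 genes were above 0, none reached 2-fold, and the median was 0.16. Targets and feedback genes had a median of 0.42, ligands and latency proteins 0.30, and receptors and SMAD factors −0.13. TGFBI was at 379 CPM with exercise and 230 CPM in control (1.65). LTBP1, which holds latent TGF-beta in the matrix, was lowest of the list, at 161 CPM with exercise and 303 CPM in control (0.530, 0.513 to 0.548). In the irradiated pair it was at 874 CPM with the combination and 262 CPM with radiation (3.34, 3.27 to 3.42). Its neighbour LINC00486, named after its values were seen, was at 111 CPM with exercise and 258 CPM in control (0.431, 0.415 to 0.448), and at 818 CPM with the combination and 209 CPM with radiation. The next lowest was INHBB, with 294 reads with exercise and 497 in control.

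In the list for mesenchymal transition, the 14 mesenchymal genes compared had a median of 0.37, with 5 at least 1.5-fold higher, the 14 epithelial genes 0.04 and the 6 transcription factors 0.12. SNAI2, a repressor of epithelial genes, had 38 reads with exercise and 18 in control (2.18, 1.22 to 4.06). It was the only member at 2-fold. The splicing regulator of epithelial cells ESRP1 was lowest, with 115 reads with exercise and 170 in control, and the receptor kinase AXL next, at 81.7 CPM with exercise and 110 CPM in control.

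Of 49 listed genes of angiogenesis 38 were compared, of which 31 were above 0, with a median of 0.22, and 1 was at least 2-fold higher. This was APLNR, the apelin receptor, with 57 reads with exercise and 21 in control (2.81, 1.68 to 4.88). ANGPT2, a vessel-destabilizing ligand, had 71 reads with exercise and 38 in control (1.93, 1.29 to 2.95). The guidance gene SEMA3E was lowest with 38 reads with exercise and 65 in control, and ANGPT1 next with 189 with exercise and 246 in control. VEGF ligands had a median of 0.01, and VEGFA, named after its value was seen, was at 153 CPM with exercise and 152 CPM in control (1.01, 0.975 to 1.05).

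NF-kappaB targets had 21 of 24 compared above 0 and a median of 0.13. IL1A had 41 reads with exercise and 22 in control, and the monocyte attractant CCL2 385 with exercise and 238 in control (1.67, 1.42 to 1.98). The lowest were SOD2 and CXCL5, with log2 ratios of −0.09 and −0.06. Of 16 chemokines 11 were above 0, and the highest, CCL26 and CCL24, had 25 and 199 reads with exercise, against 13 and 109 in control. IL6, CCL5, VCAM1 and CSF2 had too few reads to be compared, and TNF, with 43 reads with exercise and 17 in control, missed the minimum over the 4 libraries.

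Among other genes of the list of 15 highest, NECTIN4, an adhesion molecule, had 239 reads with exercise and 76 in control, and 210 with the combination and 243 with radiation, so that control alone was low. IGFN1, a gene known from muscle, was at 70.0 CPM with exercise and 14.5 CPM in control, and 22.9 CPM with the combination and 24.9 CPM with radiation (4.82, 4.38 to 5.31). CGB8, of the chorionic gonadotropin beta cluster, had 156 reads with exercise and 50 in control (3.23, 2.33 to 4.53), and its near-identical copy CGB5 58 with exercise and 16 in control. KCNMA1-AS1 had 49 reads with exercise and 11 in control and lies inside KCNMA1, which had 233 with exercise and 121 in control. MIR6856 had 38 reads with exercise and 7 in control and lies inside FUBP3, which had 2369 with exercise and 2317 in control.

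**Figure D4:**
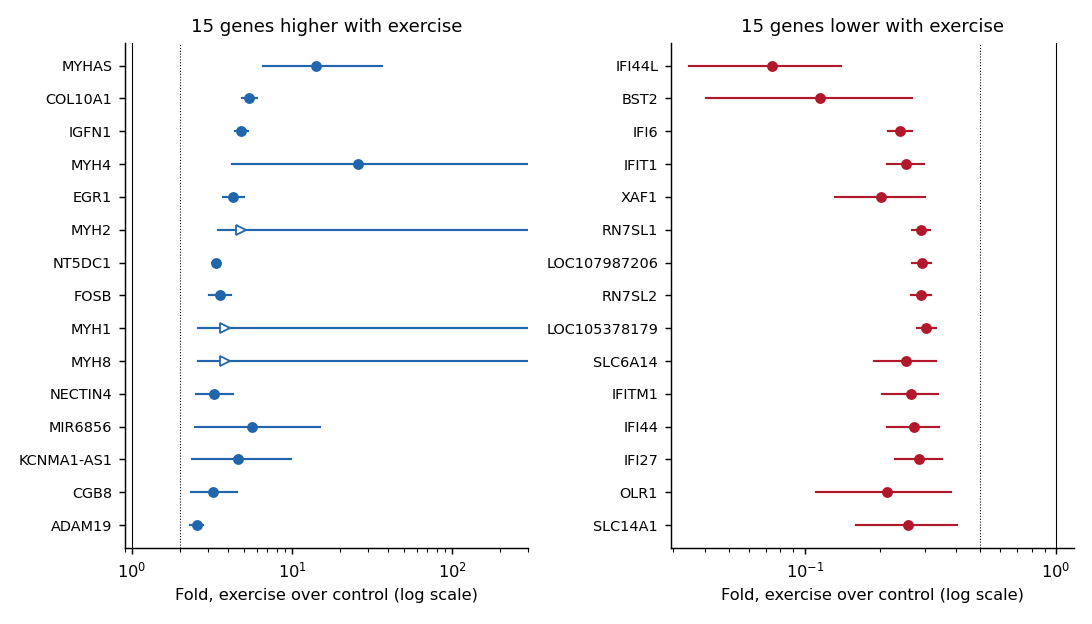
Folds of exercise over control (x axes, log scale) with exact 95% counting intervals as lines for the 15 genes with the highest lower bound and the 15 with the lowest upper bound (y axes), with dotted lines at 2-fold. Open triangles are lower bounds against the floor of 3 reads where control had 0 reads, the left axis ends at 300, and 8 of the 15 lower genes are interferon-stimulated.

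Genes of lipid synthesis lay slightly above 0. Of 25 genes of cholesterol synthesis and uptake 23 were above 0, with a median of 0.26, and 19 had an interval wholly above 1. INSIG1, the feedback regulator of SREBP, was at 31.5 CPM with exercise and 22.0 CPM in control (1.43, 1.31 to 1.57). PMVK was lowest with a log2 ratio of −0.20 and HSD17B7 had 510 reads with exercise and 529 in control. All 10 genes of fatty acid synthesis compared were above 0, with a median of 0.25, from FADS2, a desaturase, at 269 CPM with exercise and 175 CPM in control (1.54, 1.49 to 1.59) to the acetyl-CoA synthetase ACSS2 with a log2 ratio of 0.03. In the irradiated pair the medians of these lists were 0.19 and 0.14.

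The study asked about oxygen in the tumors, and most genes of the hypoxia response lay slightly above 0. Of 42 listed genes 41 were compared, of which 32 were above 0, 2 at least 1.5-fold higher and none 2-fold either way, with a median of 0.12. The control library was the lowest of the 4 for 31, against 20.4% of all genes. LOXL2, a collagen cross-linking enzyme, had 1181 reads with exercise and 679 in control (1.80, 1.64 to 1.98), and the glucose transporter SLC2A3 was at 167 CPM with exercise and 108 CPM in control (1.54). All 15 genes of glucose transport and glycolysis were above 0, with a median of 0.20, and control was the lowest library for all 15. CA9, a carbonic anhydrase induced strongly by hypoxia, was at 36.0 CPM with exercise and 38.7 CPM in control, and 93.6 CPM with the combination and 69.3 CPM with radiation. Its fold of 0.931 had an interval of 0.862 to 1.01. The lowest members were MXI1 and STC2, with log2 ratios of −0.25 and −0.19. HIF1A, the oxygen-regulated subunit of HIF-1, was at 180 CPM with exercise and 153 CPM in control (1.18, 1.13 to 1.22), and the 10 oxygen sensing genes compared had a median of −0.01. HIF1A is regulated mainly through the stability of its protein, which was not measured here.

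TXNIP and ARRDC4, arrestin-family genes known to follow glucose through the factor MondoA, were lower together. TXNIP, which limits glucose uptake, was at 53.4 CPM with exercise and 113 CPM in control, and 142 CPM with the combination and 134 CPM with radiation (0.470, 0.445 to 0.497). ARRDC4 was at 8.61 CPM with exercise and 16.5 CPM in control, and 23.2 CPM with the combination and 23.7 CPM with radiation (0.522, 0.453 to 0.602). For both the exercise library was the lowest of the 4. The third arrestin of the list, ARRDC3, was at 107 CPM with exercise and 114 CPM in control. The 11 AMPK and related kinase genes, the cell's energy sensors, had a median of −0.01 and none reached 1.5-fold.

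Genes of mitochondrial DNA were higher as a group, with 12 of 13 above 0 and a median of 0.28. The cytochrome oxidase genes COX2 and COX1 were highest, with log2 ratios of 0.49 and 0.38, and ND6 and ND3 lowest, with −0.01 and 0.02. Control was the lowest of the 4 libraries for 12 of the 13. The 38 complex I genes of the nucleus had a median of 0.03, which was below 0 with total-count scaling. Pore and carrier genes lay around 0. SLC25A31, the germline ADP/ATP translocase, had 2 reads with exercise and 5 in control, and was not compared. Of the 10 genes of the permeability transition pore compared, 8 were above 0, with a median of 0.07, from the channel VDAC3 with a log2 ratio of 0.25 to the translocator TSPO with −0.40. The 44 mitochondrial carriers had a median of −0.01.

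Redox genes lay around 0. NRF2 targets, which A549 cells express strongly because their KEAP1 is mutated, had a median of 0.07 with 19 of 29 above 0, between ferritin heavy chain FTH1, at 672 CPM with exercise and 491 CPM in control, and ferritin light chain FTL, at 1935 CPM with exercise and 2176 CPM in control. The 14 glutathione S-transferases compared had a median of 0.02 (below 0 with total-count scaling), with GSTO1 at 738 reads with exercise and 727 in control (1.05, 0.947 to 1.16). GSTM5 had 0 reads in both and is not compared, a count that allows up to 3 reads, or 0.0867 CPM with exercise and 0.0838 CPM in control. Of 19 enzymes that make or remove reactive oxygen 5 were above 0, with a median of −0.09. NOX4, an oxidase that releases hydrogen peroxide, was the only member at 2-fold. It had 74 reads with exercise and 26 in control, and 21 with the combination and 24 with radiation (2.94, 1.86 to 4.8). NOX1 was lowest at 22.9 CPM with exercise and 31.9 CPM in control (0.716, 0.653 to 0.784).

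Heat shock genes and p53 targets all stayed within 1.5-fold. Of 22 heat shock genes 21 were above 0, with a median of 0.14, led by HSPA1L with 181 reads with exercise and 132 in control and by HSPB1 at 153 CPM with exercise and 124 CPM in control. The p53 targets had a median of 0.07 with 22 of 34 above 0, from GDF15 at 53.5 CPM with exercise and 40.2 CPM in control (1.33, 1.24 to 1.43) and the cell cycle inhibitor CDKN1A at 79.5 CPM with exercise and 60.5 CPM in control (1.32, 1.24 to 1.39) to TNFRSF10C and SPATA18, with log2 ratios of −0.31 and −0.25. All 3 metallothioneins compared, metal-binding proteins, were above 0 and 1 was at least 2-fold higher, with MT1F at 32 reads with exercise and 15 in control, MT2A at 217 with exercise and 148 in control and MT1X at 188 with exercise and 130 in control.

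Most secretory genes of airway epithelium were slightly lower. Of 20 compared, 4 were above 0, with a median of −0.17 and the exercise library lowest for 15. The trefoil factor TFF2 had 41 reads with exercise and 83 in control (0.511, 0.343 to 0.751), and CEACAM5, the carcinoembryonic antigen, was at 830 CPM with exercise and 1332 CPM in control (0.623, 0.614 to 0.632). The mucins MUC1 and MUC5B were highest with log2 ratios of 0.54 and 0.29. Of 32 complement and coagulation genes 12 were above 0, with a median of −0.10. Complement C4B and C4A, near-identical copies, had 200 and 178 reads with exercise and 310 and 265 in control, while tissue factor F3 had 846 with exercise and 534 in control (1.64, 1.47 to 1.83) and PLAT 133 with exercise and 90 in control. Of the clock genes, 6 of 18 compared were above 0, from BHLHE40 with a log2 ratio of 0.52 and PER1 with 0.39 to PER3 with −0.76. Among other genes of the list of 15 lowest, the amino acid transporter SLC6A14 had 63 reads with exercise and 258 in control, and 355 with the combination and 414 with radiation (0.253, 0.189 to 0.334). The urea transporter SLC14A1 had 25 reads with exercise and 100 in control, and the lipoprotein receptor OLR1 14 with exercise and 68 in control.

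Protein synthesis and turnover genes were level. Medians were −0.03 for 85 cytosolic ribosomal protein genes and 0.03 for 47 proteasome subunits (below 0 with total-count scaling). The highest ribosomal protein gene had a log2 ratio of 0.59. RPS29 was the lowest, at 36.7 CPM with exercise and 89.8 CPM in control (0.409, 0.383 to 0.436). Its annotated span contains RN7SL1, a 7SL RNA gene. RN7SL1 had 733 reads with exercise and 2612 in control (0.290, 0.267 to 0.315), RPS29 1271 with exercise and 3216 in control, and LOC107987206, listed with nearly the same counts as RN7SL1, 736 with exercise and 2612 in control. RN7SL2 had 652 reads with exercise and 2325 in control, and LOC105378179, whose span contains it, 697 with exercise and 2367 in control. These are 4 of the 15 lowest genes, and they cover 2 spans. How reads were shared within each span cannot be told apart.

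The abundant RNAs that lack a polyA tail were lower. All 5 of the 7SL, 7SK, RMRP and RPPH1 genes compared were at least 2-fold lower, with a median of −1.56, and all 20 ribosomal RNA genes were at least 1.5-fold lower, with a median of −0.92. The ribosomal copies share reads, with log2 ratios from −1.01 to −0.65. In the irradiated pair both groups were below 0 as well, at −0.64 and −0.43. Of the small nuclear RNA genes 1 was compared, RNU7-1, which lies inside C12orf57 and had 16 reads with exercise and 34 in control (0.487, 0.251 to 0.906). The replication-dependent histones had 14 of 26 above 0 and a median of 0.05, and the small nucleolar and Cajal RNA genes 60 of 114 and 0.03. The part of polyA selection in other differences was not tested.

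Noncoding gene classes were centred near 0. The 461 LINC genes compared had a median of −0.05, with 5 past 2-fold upwards and 8 downwards, where 0.83% and 0.696% of all genes were, and of 2428 uncharacterized LOC genes 31 were higher and 39 lower, with a median of −0.04. Of 1881 microRNA genes 230 were compared, with 7 at least 2-fold higher and 1 lower and a median of 0.03, below 0 with total-count scaling. These reads come from long RNA over the microRNA gene and not from the mature microRNA. The highest after MIR6856 was MIR6849, with 36 reads with exercise and 11 in control, and the lowest was MIR6736, with 13 with exercise and 30 in control. The 461 zinc finger genes of the ZNF family had a median of −0.05, with 177 above 0.

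Genes that mark host or stromal cells varied from 0 reads to well expressed, and reads were matched to the human genome, so whether reads came from tumor or mouse cells cannot be told apart. In bulk RNA, fewer cells of a type and less RNA per cell cannot be told apart either. Of 20 skeletal muscle markers 16 were compared, of which 7 averaged at least 20 reads in the exercise and control libraries themselves. The others passed the minimum only through the irradiated libraries. Of the 16, 8 were at least 2-fold higher, where 0.83% of all genes were, a count that this filter makes no measure of exercise against control. The 8 were MYH1, MYH2, MYH4, MYH7, MYH8, TNNI2, CKM and ACTN3. The 5 MYH genes were among those that averaged below 20 reads in the exercise and control libraries and passed only through the irradiated libraries. MYH4, a fast myosin, had 25 reads with exercise and 1 in control, and 417 with the combination and 485 with radiation. MYH2 had 14 reads with exercise and 0 in control, at least 4.83-fold higher against the floor of 3 reads in control, and MYH1 and MYH8 each had 11 with exercise and 0 in control, at least 3.79-fold higher. MYH7 had 2 with exercise and 0 in control, within the floor. MYHAS, antisense to the myosin cluster of chromosome 17, had 96 reads with exercise and 7 in control, and 1313 with the combination and 1366 with radiation. Both irradiated libraries lay far above both others for these genes. The list's median was 0.60, or 0.11 over 15 genes with those at 0 reads set to their bounds and MYH7 left out, and 0.01 over the 7 members with a mean of 20 reads in the exercise and control libraries themselves. The summed level of the 20 markers was 52.56 CPM with exercise and 52.96 CPM in control, with 3 members at 0 reads with exercise and 5 in control.

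The other marker lists had fewer members past 2-fold, although the summed levels of some differed more than that of the muscle markers. Fibroblast markers summed to 379 CPM with exercise and 371 CPM in control, with a median of 0.00 over 10 compared (below 0 with total-count scaling) and FAP at 34 reads with exercise and 17 in control. Endothelial markers summed to 31.7 CPM with exercise and 37.6 CPM in control, and 3 of 13 were compared, all below 0. Pericyte and smooth muscle markers summed to 109 CPM in both, with KCNJ8 at 33 reads with exercise and 73 in control. Macrophage and neutrophil markers summed to 366 CPM with exercise and 375 CPM in control, with CD163, TYROBP, C1QA, C1QB, C1QC and S100A8 at 0 reads in both. Keratinocyte markers summed to 230 CPM with exercise and 247 CPM in control. Lymphocyte, adipocyte and erythroid markers summed to 3.76, 8.76 and 0.549 CPM with exercise, against 3.46, 10.1 and 0.726 CPM in control. The part of these cells in the differences above was not tested. Leaving out all genes of the marker lists left 152 genes at least 2-fold higher and 134 lower.

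The combination and radiation libraries form a pair that differs in exercise too and shares no library with the exercise and control pair. Of the 161 genes at least 2-fold higher with exercise 86 (53.4%) were above 0 in the irradiated pair and 4 were at least 2-fold higher there. Of the 135 lower genes 62 (45.9%) were above 0 and 3 at least 2-fold lower. Over all genes 55.3% were above 0. The list medians stood side by side as follows. The interferon response had −0.54 for exercise over control and 0.12 for the combination over radiation, mitosis and G2/M 0.59 and 0.04, DNA replication and G1/S 0.39 and 0.08, kinesins 0.30 and −0.09, collagens 0.10 and 0.08, immediate early genes 0.31 and 0.49, cholesterol synthesis 0.26 and 0.19, and heat shock 0.14 and 0.26. Whether these differ between unirradiated and irradiated tumors cannot be tested with 1 library a group.

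**Figure D5:**
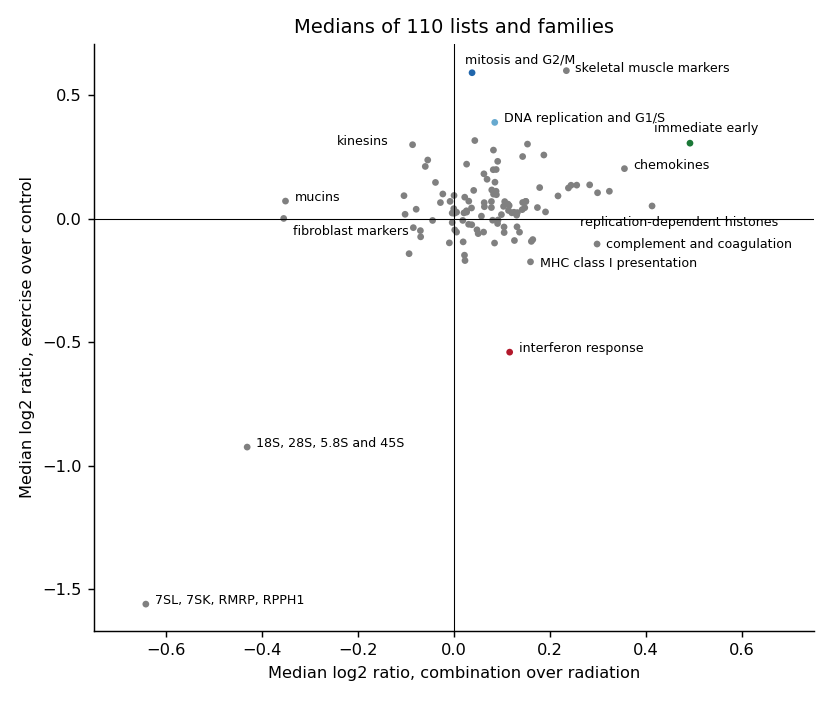
Median log2 ratio of exercise over control (y axis) against that of the combination over radiation (x axis) for the 110 lists and families with at least 5 genes compared, 1 point a list. Mitosis lies high on the y axis at 0.59 and near 0 on the x axis, the interferon response lies below 0 on the y axis only, and immediate early genes lie above 0 on both.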

How the data were processed

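The libraries were polyA-selected, stranded and sequenced as pairs of 100 nt. Per the labels and the study's methods, the authors trimmed reads with cutadapt, placed them on GRCh38 with Bowtie2 2.3.4.1 and ran featureCounts 1.6.0. They deposited 1 read count and 1 FPKM a gene for each of 4 libraries. FPKM divides the count by gene length and library total, and for 83.6% of 9846 genes checked the deposited FPKM implied a length within 2% of the gene's span with its introns. Reads over introns may therefore be part of the counts, which bears on every count and most on genes nested in others, and this was not tested. Bowtie2 does not place reads across introns. For the strand setting, the feature type and the handling of mouse reads, the settings were not given in the sources used here.

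Counts were joined by gene name and scaled with TMM factors (edgeR 4.0.16 in R 4.3.3) of 1.0088 for exercise and 1.03454 for control. Genes with a mean of at least 20 reads over the 4 libraries were kept. Log2 ratios used 0.5 added reads, and a count of 0 was set to a floor of 3 reads for a bound. Intervals came from scipy 1.17.1 and cover counting error alone. With 1 library a group, no test was made. The ratio and interval steps were tested on simulated data.

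In all, ratios were summarized for 118 lists and families, and only part of them are described here. The lists and the comparison were chosen with earlier results of these data known. Genes named are the 15 with the highest lower bound and the 15 with the lowest upper bound, the ends of each list, members past 2-fold where there were 5 or fewer, and genes the study names. Others are background or were chosen after their values were seen, including neighbouring or overlapping genes, genes of the 6 immediate early and 14 interferon genes past 2-fold and genes listed as absent. Promoter windows are from RefSeq (GRCh38.p14), with 35116 windows for 27305 genes. Alternatives were other priors, minimum counts, scalings, gene sets, thresholds and the FPKM. Some genes are not reported here.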

Additional observations from a re-analysis of the deposited data

Results flagged for a closer look

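Several results pointed one way for exercise over control and the other way for the combination over radiation. In each case the difference between the pairs was not tested, since each group is 1 library. The interferon response had a median log2 ratio of −0.54 for exercise over control and 0.12 for the combination over radiation. MHC class I presentation had −0.17 and 0.16, and complement and coagulation −0.10 and 0.30. Single genes were screened only among the 15 highest and 15 lowest, and those flagged were interferon-stimulated. LTBP1 and LINC00486, outside that screen, also pointed opposite ways, with the values given above. BST2 had a log2 ratio of −3.02 for exercise over control and 0.55 for the combination over radiation, XAF1 −2.29 and 0.34, IFI6 −2.06 and 0.76, IFIT1 −1.98 and 0.25, IFITM1 −1.92 and 0.78, and IFI27 −1.81 and 0.57.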

How the results depend on the processing

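The number of genes past 2-fold depended on the minimum count and on the threshold. With no minimum, 2564 genes were at least 2-fold higher with exercise and 3059 lower, against 161 and 135 as reported. A minimum mean of 100 reads gave 45 higher and 26 lower, the FPKM as deposited with 0.1 added 35 and 39, a threshold of 1.5-fold 748 and 623, a threshold of 4-fold 15 and 8, and an interval wholly past 2-fold 32 and 26. The other priors, minimum, scalings and gene sets gave 138 to 165 higher and 105 to 161 lower genes. Scaling to total counts gave 138 higher and 161 lower, and turned the balance, with 46.2% of genes past 2-fold higher against 54.4% with TMM. It moved the median of all genes by −0.04, the largest shift of any scaling. The 34 named genes tried kept their sign under every setting that gave them a value, and 17 moved beyond their counting interval with FPKM. A list median counted as moved when it left the range between the median lower and median upper bound of its members' counting intervals. By this rule 2 of 47 list medians moved with FPKM, 1 with total-count scaling and 5 when the mean replaced the median. Medians inside that range could still differ much. Kinesins had 0.07 with FPKM against 0.30, and with no minimum keratins had 0.008 against 0.24 and skeletal muscle markers 0.08 against 0.60. Of the lists, 6 with medians within 0.04 of 0 changed sign under some setting. Total-count scaling gave −0.02 for glutathione S-transferases, −0.01 for complex I and for microRNA genes, −0.002 for proteasome subunits and −0.03 for fibroblast markers. FPKM turned the same 5. Fibroblast markers also turned with no minimum and with a minimum mean of 100 reads. The mean turned glutathione S-transferases and oxygen sensing.

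No paired analysis was possible because each group has 1 library, and no replicate could be left out. Among genes with a mean below 50 reads in the exercise and control libraries the SD of log2 ratios was 0.60, against 0.18 at 2000 reads or more.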
